A study of Gallus gallus with 24 samples.

Results

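Genes that mark macrophages, dendritic cells and heterophils were followed in the jejunum, a segment of the small intestine, of 24 chickens by RNA sequencing. They were taken by name from a list of 35 gene names, of which 32 are in the deposited table of 15618 genes and 30 passed a filter on low values that 13279 genes passed. AIF1 and MPEG1 are not in the table under those symbols, and MRC1L-B is listed in RefSeq as a synonym of MMR1L4, which is in the table. CATHL1 and CATHL2 did not pass the filter and are given as levels. The birds belong to the lines HAS and LAS, which breeders selected upward and downward for the antibodies made against sheep red blood cells (SRBC). HASN and LASN were not injected, HASI and LASI were injected with SRBC, and every group is 6 birds, sequenced 1 library a bird. The labels give 5 days post injection for every bird. The age, sex, diet and route of injection are not given in the sources used here, and alleles linked to the selected ones can also differ between the lines.

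Macrophages and dendritic cells are resident phagocytes of the intestinal wall: macrophages engulf and digest microbes and dying cells, and dendritic cells carry antigen to T cells. Heterophils are the avian counterpart of neutrophils, which enter tissue from blood and kill bacteria with granule peptides and enzymes. All 3 kinds arise from bone marrow precursors under growth factor receptors such as CSF1R, FLT3 and CSF3R, and they share proteins for adhesion, Fc receptor signalling and the oxidative burst. In bulk tissue, fewer cells of a kind and less RNA per cell cannot be told apart.

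The values are taken to be TPM, since all columns add up to about the same sum. TPM is a relative transcript abundance that is scaled per transcript length and to the same total in every library. Comparisons of levels between genes rest on that inferred unit. Read counts are not in the table and the depth is unknown. Libraries differed in a measure of how long genes fared against short ones, the regression slope of a gene's log2(TPM + 1) on its log2 length along the genome, called the span slope here. It was -0.22, -0.28 and -0.24 in HASN replicates 1 to 3 and 0.0041, -0.02 and 0.01 in HASN replicates 4 to 6. It ran from -0.22 to -0.10 in HASI, from -0.13 to 0.02 in LASN and from -0.24 to -0.06 in LASI. The slope was lower in LASI than in LASN (exact two-sided permutation p = 0.00866, adjusted 0.0433 over 12 comparisons of library measures, 6 birds a group). The mitochondrially encoded share of TPM was 27.8% ± 6.86 (SD, n = 6) in HASI against 17.5% ± 4.53 in HASN, and 22.1% ± 4.05 in LASI against 15.0% ± 3.32 in LASN (exact permutation p = 0.00866 and 0.0108, both adjusted 0.0433). The mean log2(TPM + 1) of genes on chromosome W, which only females carry, was 0.14 to 0.41 in some birds and 2.16 to 3.14 in the others. Birds of both levels, and so of both sexes, were in every group, and the main fit did not include sex.

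All macrophage receptors on the list other than CD14 were above 0 in every library. CSF1R, the receptor for the macrophage growth factor CSF1, averaged 15.3 TPM over the 24 birds and was never below 4.97 TPM. MARCO, a scavenger receptor for bacteria, averaged 15.2 TPM. VSIG4, a complement receptor of resident macrophages in mammals, averaged 7.31 TPM and TIMD4, a receptor for phosphatidylserine on dying cells, averaged 5.48 TPM. MMR1L4 and MRC1, relatives in the mannose receptor family, averaged 1.68 and 1.19 TPM. They lie beside each other on chromosome 2 (galGal6; MMR1L4 at 19542337 to 19568271, MRC1 at 19573334 to 19621981, both on the minus strand), and how reads were divided between such relatives is uncertain. CD14, the co-receptor for bacterial lipopolysaccharide, averaged 0.386 TPM and was at 0 in 6 birds.

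The chains of C1q, the recognition part of the first complement component that tissue macrophages make, were higher per length than these receptors. C1QA averaged 32.7 TPM, C1QC 22.5 TPM and C1QB 22.1 TPM, from 3 neighbouring genes on chromosome 21. Among the dendritic cell genes, CD83, a surface protein of mature dendritic cells and of activated B cells, averaged 17.1 TPM. XCR1, the chemokine receptor of dendritic cells that present antigen to cytotoxic T cells, averaged 8.87 TPM, and FLT3, the growth factor receptor of dendritic cell precursors, averaged 1.79 TPM.

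The heterophil label rests on few transcripts. The cathelicidins, antimicrobial peptides of heterophil granules, were at or near 0: CATHL1 and CATHL2 were at 0 TPM in 17 of 24 birds each and CATHL3 in 14, and the highest value of any of them was 2.37 TPM. S100A9, a calcium-binding protein abundant in granulocytes, averaged 0.827 TPM and was at 0 in 5 birds, and MMP9, a gelatinase stored in granules, averaged 0.857 TPM. CSF3R, the receptor for granulocyte colony-stimulating factor, averaged 5.24 TPM, but its model lies inside that of STK40 on the same strand. STK40 stood at 38.7 to 95.1 TPM, and whether its reads were counted for CSF3R is not known. The secreted proteins on the list were far higher, with LYZ, the c-type lysozyme, at 143 TPM, LYG2, a g-type lysozyme, at 29.9 TPM and EXFABP, a lipocalin that binds bacterial siderophores, at 11.9 TPM on average. Cells other than heterophils can also make these proteins. AVD, the biotin-binding protein avidin, averaged 1.83 TPM.

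Most of the genes shared by phagocytes and other leukocytes were abundant. LSP1, an actin-binding protein, averaged 111 TPM, FCER1G, the signalling chain of Fc receptors, 88.9 TPM, LCP1, the actin-bundling protein L-plastin, 86.0 TPM and ITGB2, the beta chain of the leukocyte integrins, 71.0 TPM. PTAFR, the receptor for platelet-activating factor, averaged 2.13 TPM. SPI1, the transcription factor PU.1 of myeloid and B cells, averaged 23.9 TPM. The oxidase genes were lower, with NCF1, a cytosolic subunit, at 7.69 TPM, CYBB, the catalytic subunit, at 5.97 TPM and NCF4, another cytosolic subunit, at 2.32 TPM.

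**Figure D1:**
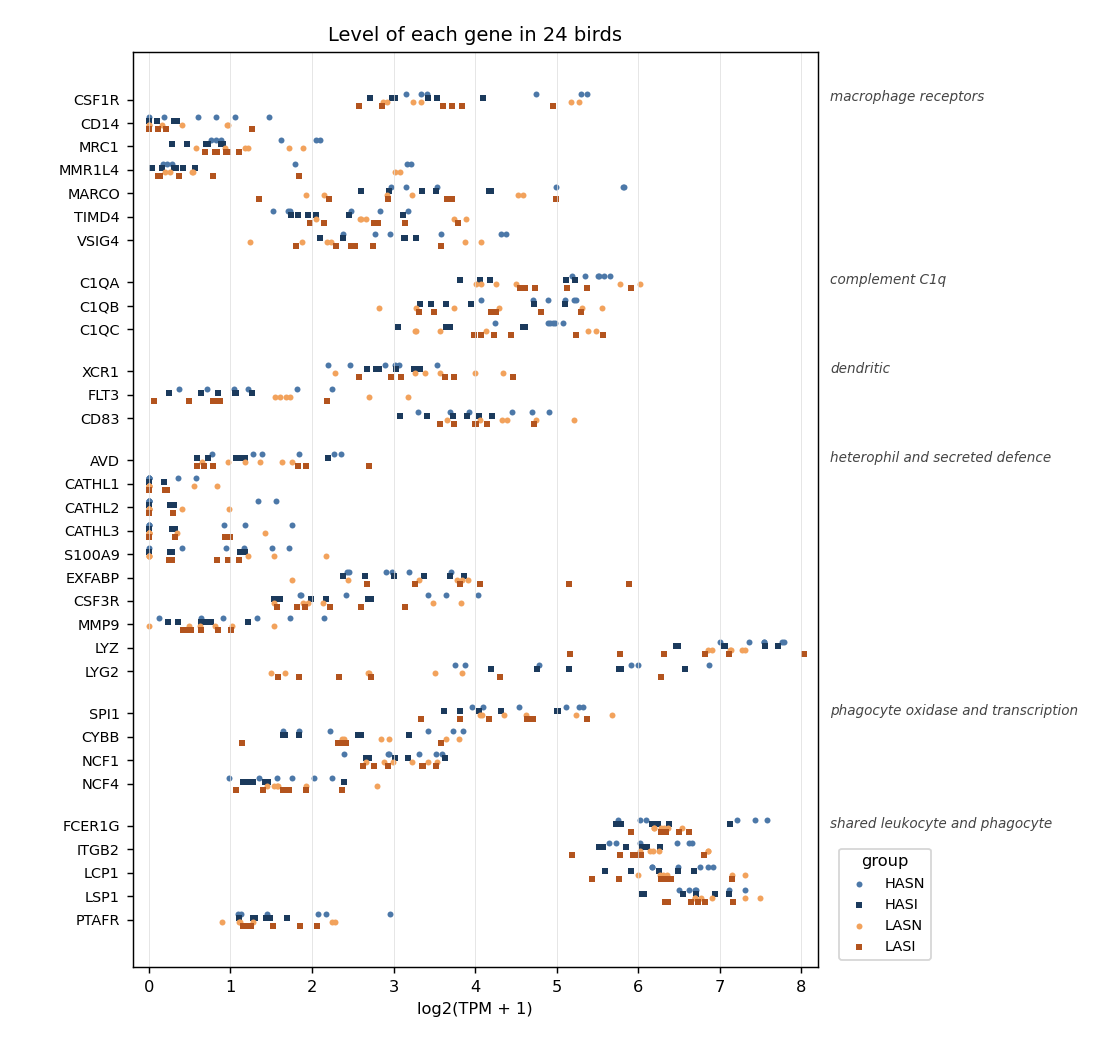
Level of each gene as log2(TPM + 1), 1 point a bird, with genes in groups by role and colours and shapes for the 4 groups. The shared leukocyte genes other than PTAFR lie farthest to the right together with LYZ, the cathelicidins lie at or near 0, and most LYG2 points of HAS birds lie to the right of those of LAS birds.

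The line comparison asks which of these genes differed between HAS and LAS birds. An effect of selection cannot be told apart here from other differences between the lines, drift included. LYG2, which cuts the peptidoglycan of bacterial cell walls, was higher in HAS than in LAS birds, and no other gene on the list passed. In HASN it stood at 12.4, 13.7, 26.4, 62.7, 115 and 59.1 TPM in replicates 1 to 6. In HASI it stood at 54.1, 94.6, 26.1, 34.5, 17.3 and 53.2 TPM. The LASN birds had 5.41, 5.50, 1.83, 10.3, 13.3 and 2.18 TPM, so 5 of 6 HASN birds lay above every LASN bird. The LASI birds had 76.3, 18.8, 5.58, 2.0, 2.57 and 4.05 TPM, and LASI replicate 1 lay above 5 of the 6 HASI birds.

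The group means of LYG2 were 48.3 ± 39.5 TPM in HASN and 46.6 ± 27.7 TPM in HASI (SD, n = 6), against 6.42 ± 4.54 TPM in LASN and 18.2 ± 29.1 TPM in LASI. With both treatments averaged, the log2 fold change of HAS over LAS was 2.37 (SE 0.48, adjusted p = 0.00616). The test was limma on log2(TPM + 1) with Benjamini-Hochberg adjustment over the 13279 genes, and "called" means that the adjusted p was under 0.05. LYG2 was the 1 gene called of 30 on the list in this comparison, in which 2.60% of all tested genes were called. It was called under all 32 other settings of this comparison, with log2 fold changes of 2.07 to 2.68 and adjusted p-values of 0.000359 to 0.0299.

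Within the groups the difference was of like size and did not pass. LYG2 was higher in HASN than in LASN by a log2 value of 2.55 (SE 0.69, adjusted p = 0.0737 by limma) and in HASI than in LASI by 2.20 (SE 0.69, adjusted p = 0.246). Without LASI replicate 1, the LAS bird highest in LYG2, the adjusted p-values were 0.0225 and 0.0290. Leaving out other single birds gave values up to 0.179 between HASN and LASN and 0.524 between HASI and LASI. Of 33 other settings, 3 gave a call between HASN and LASN and 1 between HASI and LASI. The interaction of line and injection for LYG2 was -0.35 (95% interval -2.36 to 1.65, adjusted p = 0.900). Injection averaged over lines gave 0.35 (95% interval -0.65 to 1.35, adjusted p = 0.565).

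LYG2 (ENSGALG00000016761) lies on chromosome 1 at 133828101 to 133831585 on the minus strand in galGal6. A model on the opposite strand, ENSGALG00000016760, overlaps it over 2001 bases. Whether counting used the strand is not given in the sources used here, and reads of the pair may not be separable. ENSGALG00000016760 itself stood at 53.8 ± 16.2 TPM in HASN against 46.8 ± 5.72 TPM in LASN, and at 56.1 ± 8.31 TPM in HASI against 64.1 ± 12.1 TPM in LASI (SD, n = 6). Of the markers of other cell types, JCHAIN of plasma cells was lower in HAS than in LAS (log2 fold change -0.80, adjusted p = 0.0396 by limma). It was 1 of 4 tested markers of B and plasma cells, with 2.60% of all tested genes called. JCHAIN lost its call after median-ratio rescaling (-0.64, adjusted p = 0.125). With the span slope as a covariate it kept it (-0.75, adjusted p = 0.0305, with 6.01% of all tested genes called). The sum of the B and plasma cell markers was nearly all JCHAIN, which averaged 1190 TPM, while no other marker averaged above 3.85 TPM. This sum ran from 585 to 1400 TPM in HASN, 531 to 1257 in HASI, then 978 to 2516 in LASN and 437 to 1701 in LASI. Its part in the LYG2 difference was not tested.

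LYZ, the other lysozyme on the list, did not pass the same test. It stood at a lowest, median and highest of 127, 185 and 220 TPM in HASN and 87.5, 132 and 208 TPM in HASI. In LASN it stood at 115, 139 and 157 TPM and in LASI at 34.9, 95.5 and 260 TPM, so the groups overlapped. The averaged log2 fold change of HAS over LAS was 0.46 (SE 0.23, adjusted p = 0.423 by limma). The model of LYZ overlaps that of YEATS4 on the same strand over 2273 bases, and YEATS4 stood at 24.3 to 57.0 TPM.

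**Figure D2:**
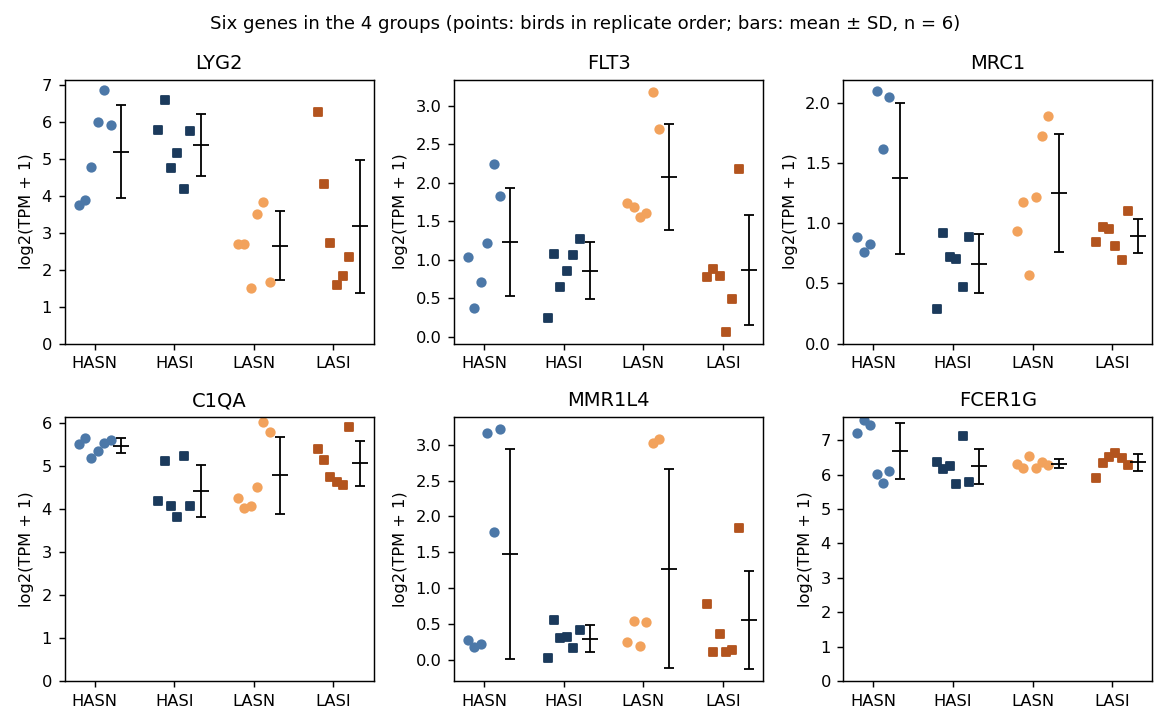
Levels of 6 genes as log2(TPM + 1) in the 4 groups, with birds as points from left to right in replicate order and the mean ± SD of 6 birds as bars. The LYG2 means of HASN and HASI lie above those of LASN and LASI while the points overlap, with LASI replicate 1 at 76.3 TPM above all but 2 HAS birds, FLT3 is lower in 5 of 6 LASI birds than in every LASN bird, and MMR1L4 splits within HASN and LASN.

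No gene on the list was called for line within a treatment. Between HASN and LASN, 0 of 30 were called by limma, with 3 at an unadjusted p below 0.05, while 1.17% of all tested genes were called. Besides LYG2 the smallest p-values belonged to FLT3, which had -0.84 (adjusted p = 0.348), and C1QA, with 0.69 (adjusted p = 0.421). Between HASI and LASI, 0 of 30 were called by limma, with 2 at an unadjusted p below 0.05, against 0.542% of all tested genes called. There EXFABP had -0.98 (adjusted p = 0.634) and C1QA -0.64 (adjusted p = 0.719).

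The dendritic cell genes had negative HAS over LAS values in both treatments, as did most of all tested genes. FLT3 had -0.84 between HASN and LASN but only -0.01 between HASI and LASI. With both treatments averaged, the log2 fold change was -0.52 for XCR1 (SE 0.22, adjusted p = 0.309 by limma), -0.43 for FLT3 (SE 0.25, adjusted p = 0.509) and -0.27 for CD83 (SE 0.20, adjusted p = 0.613). The macrophage receptor TIMD4 had -0.63 (SE 0.26, adjusted p = 0.280). XCR1 stood at 6.60 ± 2.45 TPM in HASN against 11.2 ± 5.37 TPM in LASN, and at 7.0 ± 1.48 TPM in HASI against 10.7 ± 5.84 TPM in LASI (SD, n = 6), and its groups overlapped. None of these passed. The median log2 fold change of the 30 genes was 0.01, beside -0.14 over all tested genes.

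The comparison of injected with uninjected birds asks how the tissue differed 5 days after the antigen was given. FLT3 and MRC1 were lower in injected birds, and 28 of the 30 genes tested on the list did not pass. FLT3 stood at 1.05, 0.290, 0.640, 1.32, 3.75 and 2.53 TPM in HASN replicates 1 to 6 and at 0.184, 1.10, 0.562, 0.801, 1.08 and 1.41 TPM in HASI. In LASN it stood at 2.32, 2.22, 1.93, 2.05, 8.06 and 5.48 TPM. The LASI birds had 0.720, 0.834, 0.732, 0.0484, 0.409 and 3.54 TPM, so 5 of 6 lay below every LASN bird and replicate 6 lay among them. In HAS, 1 of 6 injected birds lay below every uninjected bird.

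With both lines averaged, FLT3 fell by 0.79 on the log2 scale (SE 0.25, adjusted p = 0.0176 by limma). MRC1, the macrophage mannose receptor, fell by 0.53 (SE 0.17, adjusted p = 0.0185). These 2 of 30 genes were called, both lower, while 41.1% of all tested genes were called in this comparison. MMR1L4 had -0.94 (SE 0.41, adjusted p = 0.0659) and did not pass. The median over the 30 genes was -0.33, with 27 below 0, beside -0.29 over all tested genes, of which 81.0% were below 0. After median-ratio rescaling, which moved the median of all genes to 0.01, the median of the 30 genes was -0.05 with 19 below 0.

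After that rescaling FLT3 at -0.59 and MRC1 at -0.34 passed (adjusted p = 0.0327 each by limma), as did EXFABP, higher at 0.92 (adjusted p = 0.0421), with 33.3% of all tested genes called. With the span slope of each library as a covariate none of these 3 passed: FLT3 had -0.32 (adjusted p = 0.240), MRC1 -0.17 (adjusted p = 0.254) and EXFABP 0.57 (adjusted p = 0.322). The slope itself is computed from the same values. CD3E of T cells was also lower in injected birds in the main fit (-0.46, adjusted p = 0.0163 by limma), as was CDH17 of the epithelium (-0.70, adjusted p = 0.0380). Each was 1 of 4 tested markers of its kind, with 41.1% of all tested genes called. After rescaling CD3E had -0.11 (adjusted p = 0.542) and CDH17 -0.34 (adjusted p = 0.145), and EPCAM of the epithelium was called higher. With the slope as a covariate CD3E had -0.32 (adjusted p = 0.130) and CDH17 -0.13 (adjusted p = 0.618). The T cell markers summed to 314 to 469 TPM in HASN, 258 to 468 in HASI, then 342 to 537 in LASN and 227 to 484 in LASI. The part of these in the falls of FLT3 and MRC1 was not tested.

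By line, the fall of FLT3 passed in LAS. Between LASI and LASN its log2 value fell by 1.21 (SE 0.35, adjusted p = 0.0200 by limma), and FLT3 was the 1 gene called of 30, against 31.1% of all tested genes. Without LASI replicate 4, LASI replicate 5, LASN replicate 5 or LASN replicate 6 the adjusted p-value was 0.0508 to 0.0549. With the span slope as a covariate, which itself was lower in LASI than in LASN, FLT3 had -0.50 (adjusted p = 0.288) and was not called. With a pseudocount of 0.1 in place of 1 the fall was -2.11 (adjusted p = 0.0232). FLT3 had -0.38 between HASI and HASN (adjusted p = 0.508). The 2 changes were not shown to differ, since the interaction was 0.83 (95% interval -0.19 to 1.85, adjusted p = 0.750). EXFABP, with 0.97 between LASI and LASN (adjusted p = 0.101), and ITGB2, with -0.43 (adjusted p = 0.150), did not pass. Without LASI replicate 6, EXFABP and ITGB2 were called too, and EXFABP passed after median-ratio rescaling (1.36, adjusted p = 0.0368, with 31.4% of all tested genes called).

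EXFABP was uneven within LASI. It stood at 58.4, 15.7, 8.63, 34.6, 13.1 and 5.39 TPM there, and at 12.7, 2.38, 4.43, 8.95, 14.1 and 13.4 TPM in LASN. LASI replicates 1 and 4 were the highest of all 24 birds, and the LASI bird at 15.7 TPM also lay above every LASN bird. The LASI birds at 8.63, 13.1 and 5.39 TPM lay within the LASN range. In HAS the lipocalin ran from 4.36 to 12.1 TPM in HASN and from 4.21 to 13.6 TPM in HASI.

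In HAS the genes with the smallest p-values for injection were C1QA, MRC1 and C1QC, and none passed. C1QA stood at 44.6, 49.2, 35.3, 39.6, 44.8 and 47.0 TPM in HASN and at 17.1, 33.5, 15.7, 13.1, 36.3 and 15.7 TPM in HASI. Every HASI bird but replicate 5 lay below every HASN bird. In LASN it stood at 18.1, 15.1, 15.8, 21.7, 63.7 and 53.8 TPM and in LASI at 40.5, 34.0, 25.6, 23.4, 22.4 and 58.9 TPM. In LAS the groups overlapped widely, and 2 LASN birds were as high as the highest LASI bird or nearly so.

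Between HASI and HASN, the log2 fold change was -1.06 for C1QA (SE 0.33, adjusted p = 0.116 by limma), C1QC -0.97 (adjusted p = 0.221) and C1QB -0.84 (adjusted p = 0.325). MRC1 had -0.71 (adjusted p = 0.147). By limma 0 of 30 genes were called, with 4 at an unadjusted p below 0.05, against 2.0% of all tested genes called. Between LASI and LASN the C1q genes had 0.28, 0.06 and 0.40 in the order C1QA, C1QB and C1QC. With the span slope as a covariate C1QA had -0.96 between HASI and HASN (adjusted p = 0.0557), and 2 genes were then called, both lower, with 11.3% of all tested genes called. They were MRC1 at -0.53 (adjusted p = 0.00727) and FCER1G at -0.65 (adjusted p = 0.00872), and FCER1G had -0.45 without the covariate (adjusted p = 0.379).

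The interaction of line and injection was called for 0 of 30 genes and for 0 of all tested genes (0%). At an unadjusted p below 0.05 there were 2 of the 30 genes and 606 of all, or 4.56%, by limma, the 1 tool run. Those 2 were C1QA, with an interaction of -1.33 (SE 0.47, unadjusted p = 0.00928, adjusted p = 0.750), and C1QC, with -1.37 (SE 0.54, adjusted p = 0.750). Both kept a negative sign under all 32 other settings of this comparison and passed under none.

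**Figure D3:**
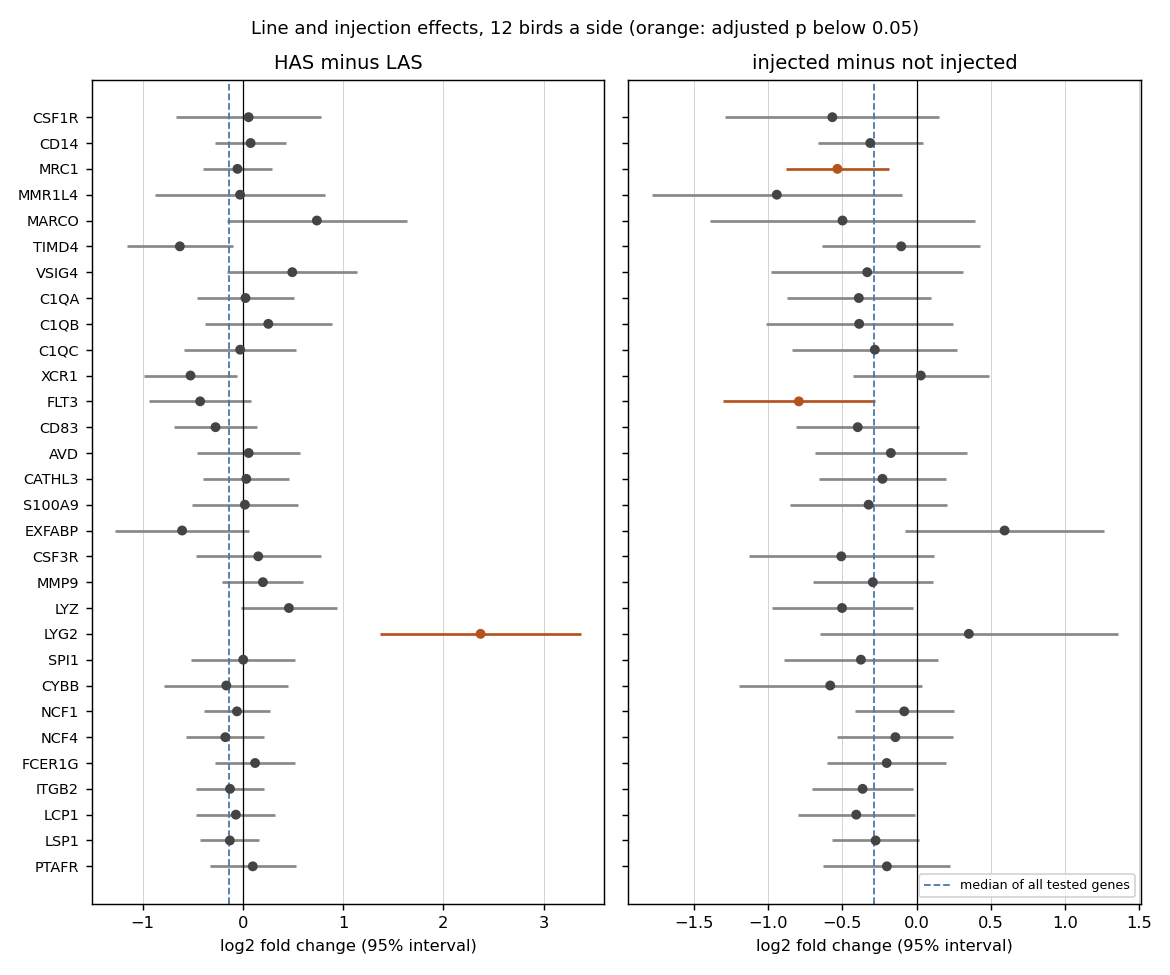
Log2 fold changes with 95% intervals for the 30 tested genes, HAS minus LAS on the left and injected minus not injected on the right, each with 12 birds a side; orange marks an adjusted p below 0.05 and the dashed line the median of all tested genes. LYG2 stands at 2.37 on the left, and MRC1 at -0.53 and FLT3 at -0.79 are the called genes on the right.

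The macrophage receptors varied widely between birds of the same group. MMR1L4 stood at 0.213, 0.132, 0.166, 7.94, 2.46 and 8.29 TPM in HASN replicates 1 to 6 and at 0.196, 0.460, 0.151, 0.443, 7.11 and 7.42 TPM in LASN. The highest value was 62.8 times the lowest within HASN and 49.3 times within LASN. HASI birds ran from 0.0223 to 0.473 TPM and LASI birds from 0.0798 to 2.59 TPM. HASN replicates 4 to 6, LASN replicates 5 and 6 and LASI replicate 6 were the 6 highest birds.

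The same birds were high in the other receptors. MARCO stood at 10.6, 7.86, 6.79, 55.6, 30.8 and 55.3 TPM in HASN and at 3.42, 6.56, 2.81, 8.37, 23.1 and 22.1 TPM in LASN. In LASI it stood at 12.1, 6.61, 11.6, 1.56, 3.62 and 30.9 TPM, and in HASI it ran from 5.09 to 17.2 TPM. CSF1R stood at 9.10, 9.61, 7.91, 40.4, 25.8 and 38.3 TPM in HASN and at 6.59, 8.41, 6.32, 9.06, 37.7 and 35.1 TPM in LASN. The span slopes of those 6 birds ran from -0.06 to 0.02, and LASN replicates 2 and 4, at -0.05 each, were the only others in that range.

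The levels of the receptors followed the span slope over the 24 birds. For MMR1L4 Pearson's r was 0.83 and Spearman's rho 0.85 (permutation p = 1e-05 each, the smallest the permutations can give, adjusted 7.5e-05 over 30 relations), and r was 0.78 without the 2 birds of the most extreme slope. On residuals from the group means r was 0.86. For CD14, whose model spans 1398 bases, r was 0.73 (rho 0.59, permutation p = 5e-05 and 0.00253, adjusted 0.000188 and 0.00542), and r was 0.65 without the 2 extreme birds. Such a relation was common among all genes: the median r was 0.61 over the 30 genes and 0.67 over all 13279. An r above 0.7 was reached by 10 of the 30 genes (33.3%) and by 48.2% of all tested genes. The slope is computed from the same values, so it and a level are not independent measures.

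The relation with the slope differed between genes. Of the 30, 22 had a positive Pearson r with an adjusted p below 0.05, 1 a negative r and 7 did not pass by the permutation test. C1QA had an r of 0.24 (rho 0.19, permutation p = 0.248 and 0.367, adjusted 0.276 and 0.408), 0.10 without the 2 extreme birds and 0.33 on residuals from the group means. For LYG2 r was 0.13 (rho 0.10, permutation p = 0.544 and 0.634, adjusted 0.563 and 0.634) and 0.19 without them, but 0.52 on residuals from the group means. FCER1G went the other way, with r = -0.65 and rho = -0.68 (permutation p = 0.00042 and 0.0004, adjusted 0.0009 and 0.0015), with r = -0.68 without the 2 extreme birds and -0.84 on residuals from the group means.

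FCER1G therefore had its high birds elsewhere. It stood at 147, 190, 172, 64.1, 52.7 and 67.4 TPM in HASN, so replicates 1 to 3, low in the receptors, were the highest. In HASI it stood at 82.1, 70.8, 74.8, 52.0, 138 and 54.1 TPM. In LASN it ran from 72.1 to 92.2 TPM and in LASI from 59.2 to 97.7 TPM. Injection averaged over lines gave -0.20 (SE 0.19, adjusted p = 0.405 by limma), 0.15 after median-ratio rescaling (adjusted p = 0.686), and -0.61 with the slope as a covariate (adjusted p = 0.00127, with 17.3% of all tested genes called).

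**Figure D4:**
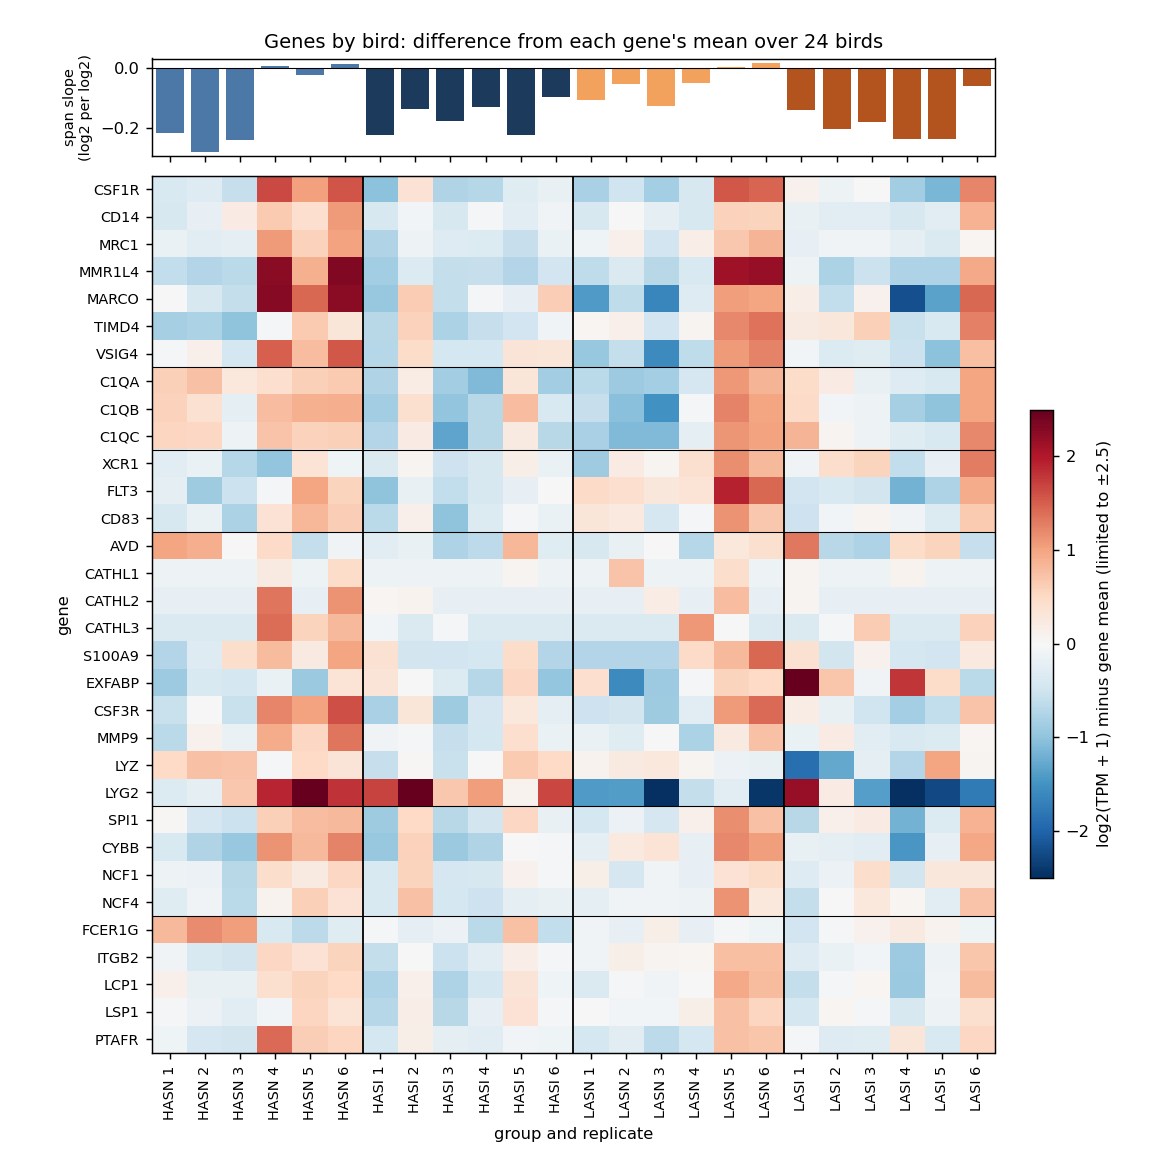
Difference of log2(TPM + 1) from each gene's mean over 24 birds, genes in rows by role and birds in columns by group, with the span slope of each library as bars above. HASN replicates 4 to 6, LASN replicates 5 and 6 and LASI replicate 6 are high in most macrophage genes and have slopes of -0.06 to 0.02, while FCER1G is high in HASN replicates 1 to 3 and LYG2 is high in most HAS birds and in LASI replicate 1.

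With the span slope as a covariate, 3 of the 7 macrophage receptors were higher in HASN than in LASN. Of the 30 genes 4 were then called, all higher in HASN, with 2.12% of all tested genes called under that fit: LYG2 at 3.09 (adjusted p = 0.0106 by limma), MARCO at 2.0 (adjusted p = 9.55e-05), VSIG4 at 1.34 (adjusted p = 0.0121) and CSF1R at 1.05 (adjusted p = 0.0424). Without the covariate MARCO had 1.16 (SE 0.61, adjusted p = 0.448), VSIG4 0.82 and CSF1R 0.42, and none was called. Each of these 3 receptors was called between HASN and LASN under 1 of 33 other settings, this one. The slopes of HASN replicates 1 to 3 were -0.28 to -0.22, below every LASN bird, of which the lowest had -0.13. For those birds the adjusted difference reaches beyond the slopes seen in LASN. Averaged over injection, LYG2, MARCO and VSIG4 were called with the covariate, MARCO at 1.09 (adjusted p = 0.000734) and VSIG4 at 0.71 (adjusted p = 0.0343), with 6.01% of all tested genes called. Between HASI and LASI 0 of 30 were called with it by limma, with 6 at an unadjusted p below 0.05 and 2.17% of all tested genes called. TIMD4 had the opposite sign, -0.25 between HASN and LASN (adjusted p = 0.785), and did not pass. MARCO also had 1.40 between LASI and LASN with it (adjusted p = 0.00719, with 5.83% of all tested genes called), where the fit without it gave -0.08 (adjusted p = 0.929) and rescaling gave 0.29 (adjusted p = 0.660). The covariate was chosen with earlier results of these data known.

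**Figure D5:**
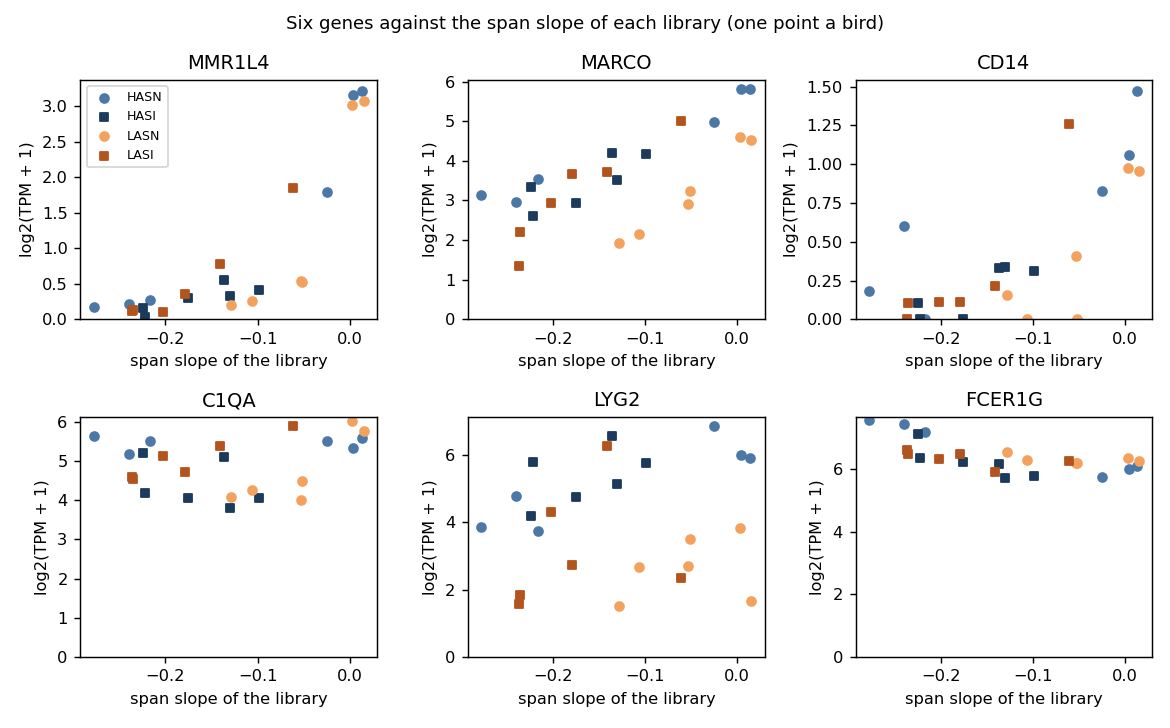
Levels of 6 genes as log2(TPM + 1) against the span slope of each library, 1 point a bird, with colours and shapes for the 4 groups. MMR1L4, MARCO and CD14 rise with the slope, FCER1G falls, and C1QA and LYG2 show r = 0.24 and r = 0.13.

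In 4 of the 6 roles the median correlation from bird to bird was higher within the role than to the rest of the list. On residuals from the group means, the median of Pearson's r between pairs was 0.95 for the 3 C1q genes and 0.65 between them and the other listed genes. It was 0.88 within the 7 macrophage receptors and 0.69 to others, 0.79 and 0.66 for SPI1 and the oxidase genes, and 0.74 and 0.68 for the dendritic cell genes. The lowest pair among the receptors had 0.77 and the highest, CSF1R with VSIG4, 0.96. Among the 8 tested genes of heterophils and secreted defence the median was 0.25 within and 0.32 to others, with pairs from -0.60 to 0.81. Among the 5 shared leukocyte genes it was 0.57 within and 0.66 to others, with pairs from -0.50 to 0.95. The 24 birds share their library effects in these values, the slope included, and no p is attached.

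Of 10 pairs tested directly over the 24 birds, C1QA with C1QC had Pearson's r = 0.957 and Spearman's rho = 0.942, and ITGB2 with LCP1 had r = 0.943 and rho = 0.901 (permutation p = 1e-05 each, the smallest possible, adjusted 1.67e-05). Without the 2 birds farthest from the median of the first gene these r were 0.962 and 0.920. CSF1R with SPI1 had r = 0.852 and rho = 0.812 (permutation p = 1e-05, adjusted 1.67e-05), and 0.846 without 2 birds. XCR1 with FLT3 had r = 0.631 and rho = 0.553 (permutation p = 0.00095 and 0.00549, adjusted 0.00136 and 0.00784), and 0.447 without 2 birds. S100A9 with EXFABP had r = 0.316 and rho = 0.420 (permutation p = 0.133 and 0.0421, adjusted 0.133 and 0.0468), so the Pearson value did not pass. CATHL2 with CATHL3 had r = 0.531 (rho 0.283, permutation p = 0.0121 and 0.176, adjusted 0.0151 and 0.176), and -0.08 without the 2 farthest birds, on which the relation rests. The highest likeness of SPI1 was to LCP1, with 0.97 on residuals, that of CYBB to ITGB2, with 0.95, and that of CSF3R to CSF1R, with 0.95. The permutation p-values of the pairs test against r = 0 only. Library effects shared by the 24 birds, the slope included, enter them, so a small p does not mark a relation particular to a pair.

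Other genes of these cells were counted from lists of 8 functions. For line within a treatment, 0 of them were called by limma. Of all tested genes 1.17% were called between HASN and LASN and 0.542% between HASI and LASI. With treatments averaged, the complement component C4 was lower in HAS (log2 difference -0.65, adjusted p = 0.00552), 1 of 10 tested complement genes, with 2.60% of all tested genes called. Between HASI and HASN, CEBPB and CEBPD, transcription factors of myeloid cells and of acute inflammation, were lower by log2 values of -1.08 and -1.22 (adjusted p = 0.00272 and 0.00274 by limma), 2 of 13 tested factors. CYBA, the partner chain of CYBB in the oxidase, had -0.99 (adjusted p = 0.00157) and CTSS, a lysosomal protease of antigen presentation, -0.65 (adjusted p = 0.0360), 2 of 14 tested genes of the oxidase and lysosome. Of all tested genes 2.0% were called between HASI and HASN. These 4 genes stayed called once the slope was added as a covariate, a fit that called 11.3% of all tested genes there. After median-ratio rescaling only CEBPB was called of these 4 (-0.82, adjusted p = 0.0351), and C4 lost its call for line (-0.49, adjusted p = 0.208). With the slope as a covariate C4 kept that call (-0.71, adjusted p = 0.000216 by limma, with 6.01% of all tested genes called).

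Between LASI and LASN, 5 of 8 tested surface and identity genes of antigen-presenting cells were lower and 0 higher, with 31.1% of all genes called. Among them were LY75, an endocytic receptor of dendritic cells, at -2.03 (adjusted p = 0.0217 by limma), CADM1 at -0.81 (adjusted p = 0.0274), CD80, a co-stimulatory ligand, at -0.75 (adjusted p = 0.0302), and ZBTB46, a transcription factor of dendritic cells, at -1.10 (adjusted p = 0.0326). These 4 kept their calls after median-ratio rescaling, and CD1B of the same list was then called higher. The spans were 39346 bases for LY75, 156677 for CADM1, 23989 for CD80 and 36086 for ZBTB46, and the span slope was lower in LASI than in LASN. With the slope as a covariate 0 of the 8 were called by limma, with 2 at an unadjusted p below 0.05, and LY75 had -0.44 (adjusted p = 0.0958). The part of the slope in these values was not tested. Of 13 transcription factors 4 were lower, RUNX1, IKZF1, GFI1 and ZEB2. Of 14 oxidase and lysosome genes 2 were lower, CYBA and CTSB, and of 17 further leukocyte genes 5 were lower, among them FGR and INPP5D. The complement component C3 was lower at -1.09 (adjusted p = 0.0375), 1 of 10 tested. With the slope as a covariate CYBA kept its call at -0.79 (adjusted p = 0.000487), while CTSB, C3 and the 4 factors lost theirs, and WAS was the 1 leukocyte gene called. After rescaling the 4 factors and C3 kept their calls, as did 3 of the leukocyte genes, DOCK2, FGR and INPP5D. CYBA then had -0.03 (adjusted p = 0.935) and CTSB -0.08 (adjusted p = 0.674). RAC2 of the oxidase and lysosome genes and ARHGDIB of the leukocyte genes were called higher. IL8L1, a chemokine that draws heterophils, was higher at 1.52 (adjusted p = 0.0283), with 48.5 TPM in LASI replicate 4 and 1.90 to 6.85 TPM in the other LASI birds. ALOX5 was the 1 granulocyte gene lower, of 10 tested. With the slope as a covariate neither was called, IL8L1 having 1.15 (adjusted p = 0.246). After rescaling IL8L1 and ALOX5 kept their calls, and CXCL12 was called higher too.

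With lines averaged, CYBA was lower in injected birds at -0.73 (adjusted p = 0.000326 by limma), and 7 of 14 oxidase and lysosome genes were lower in all, with 41.1% of all tested genes called. Of the 13 transcription factors 7 were lower, CEBPB at -0.64 (adjusted p = 0.00282) the most clearly in this fit. Of the 8 antigen-presenting genes 5 were lower, with CD40 at -0.59 (adjusted p = 0.00417), and of the 17 leukocyte genes 7 were lower, with FGR at -0.69 (adjusted p = 0.00454). Of 10 complement genes 4 were lower, C3 at -0.96 (adjusted p = 0.0122) among them, and of 3 growth factors and receptors 2 were, CSF1 at -0.33 (adjusted p = 0.0162) and KIT at -0.58 (adjusted p = 0.0293). Of the 9 phagocyte recognition genes 0 were called by limma, with 1 at an unadjusted p below 0.05. IL8L1 was higher at 1.06 (adjusted p = 0.0227), and CXCR1 and ALOX5 were lower, of 10 granulocyte genes. These counts were smaller under other settings. With the slope as a covariate, under which 17.3% of all tested genes were called, 4 of the factors were lower. So were 1 each of the oxidase and lysosome, antigen-presenting and complement genes, and 2 of the leukocyte genes. The complement gene was C4 and the leukocyte genes were FGR and WAS. Of these, C4 and WAS were not called in the main fit. C3 lost its call with the slope (-0.33, adjusted p = 0.0529 by limma), and IL8L1 was not called (0.82, adjusted p = 0.156). After median-ratio rescaling, with 33.3% of all tested genes called, 3 factors, 2 antigen-presenting, 3 leukocyte and 1 complement gene were lower. Called higher under it were CD1B of the antigen-presenting, RAC2 of the oxidase and lysosome, ARHGDIB of the leukocyte and IL8L1 of the granulocyte genes. The 3 factors were IKZF1, RUNX1 and ZEB2, and CD40, FGR and C3 kept their calls. Not called after rescaling were CYBA at -0.37 (adjusted p = 0.148 by limma), CEBPB at -0.31 (adjusted p = 0.0827), CSF1 at -0.02 (adjusted p = 0.889) and KIT at -0.27 (adjusted p = 0.101). CEBPB and CSF1 had kept their calls with the slope as a covariate (adjusted p = 0.00557 and 0.0342).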

How the data were processed

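The deposited table holds 1 column per library for 15618 genes in TPM; that unit of the authors is inferred, since all columns add up to about the same sum. The build is galGal6 per the submitters' processing notes, and the aligner, counter, annotation and strand setting are not given in the sources used here. Genes reaching 0.5 TPM in 6 or more libraries were kept and tested as log2(TPM + 1) in 1 fit over all 24 libraries with limma 3.58.1 (R 4.3.3), with 4 group means, an intensity trend and robust moderation. Fold changes on this scale understate changes of low genes. The table holds no counts, so no counting interval or floor is given. Nothing says how birds were reared, so p-values measure the spread between these birds. The gene names and lists, and the settings tried, were chosen with earlier results of these data known. The genes named are those called, the 3 with the smallest p where fewer were called, and the most abundant of each role. Genes of other lists are named where called in the main fit, at most 4 a list and comparison. Some genes called only under other settings are named beside them. Per-bird values of MARCO, CSF1R, FCER1G and EXFABP were chosen after their values were seen. Library measures were compared by exact permutation tests and correlations with 1e+05 permutations.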

Additional observations from a re-analysis of the deposited data

Results flagged for a closer look

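In groups of 6 birds, 16 of 128 combinations of gene and group (12.5%) held a bird farther from its neighbour than Dixon's 95% limit allows. The limit flags about 1 in 20 only for normally spread values, and it was applied to TPM without logs. A group with 5 birds at 0 is always flagged, as were CATHL1 in HASI and CATHL2 in LASI. The share flagged therefore cannot be read as an excess. LASI replicate 6 stood above the other LASI birds in CSF1R (30.0 TPM), CD14 (1.39 TPM), MMR1L4 (2.59 TPM), MARCO (30.9 TPM), FLT3 (3.54 TPM) and CYBB (10.9 TPM). Its span slope was -0.06, nearest 0 in its group. These 6 flags fall on 1 bird and are not independent of each other.

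LYG2 stood at 76.3 TPM in LASI replicate 1, above the other LASI birds. HASI replicate 5 was high in FCER1G (138 TPM), AVD (3.60 TPM) and CATHL1 (0.134 TPM, with the other HASI birds at 0). NCF4 was high in HASI replicate 2 (4.27 TPM) and in LASN replicate 5 (5.92 TPM), and C1QC was low in HASN replicate 3 (17.9 TPM). The low cathelicidins gave the rest: CATHL2 in LASN replicate 5 (0.978 TPM) and in LASI replicate 1 (0.222 TPM), and CATHL3 in LASN replicate 4 (1.69 TPM).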

How the results depend on the processing

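The count of called genes, of 30 on the list, moved as follows by comparison. Median-ratio rescaling gave 1 for HASN vs LASN and 2 for LASI vs LASN. The span slope as a covariate gave 4 for HASN vs LASN, 2 for HASI vs HASN, 3 for HAS vs LAS averaged and 1 for injection averaged. The shares of all tested genes called with it were 2.12%, 11.3%, 6.01% and 17.3% in the same order. The replicate number as a block gave 7 for injection averaged. Nothing in the sources used here says that the numbers pair birds. A correlation of deviations above 0.1 was found in 17 of 36 same-numbered pairs, from -0.57 to 0.79, and in 73 of 180 other-numbered pairs. The medians were 0.02 and -0.01, and 6 of 24 libraries correlated best with their own number. These correlations also carry library-wide effects such as the span slope, so they cannot decide whether the numbers pair birds. Leaving out 1 bird gave 0 to 1 for HASN vs LASN and for HASI vs LASI, 0 to 3 for LASI vs LASN and 2 to 8 for injection averaged. The 0 came without LASI replicate 4, LASN replicate 5 or LASN replicate 6, the 3 and the 8 without LASI replicate 6, and without HASN replicate 2 or 3 injection averaged gave 4 and 5. There the counts stayed at 1 for HAS vs LAS averaged and at 0 for HASI vs HASN and the interaction. The share of all tested genes called with the block or without single birds is not given here, so those counts cannot be set against it. In the main fit it was 41.1% for injection averaged and 31.1% for LASI vs LASN.

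The values that changed sign were those of MARCO, FCER1G and ITGB2. MARCO in LASI vs LASN had 0.29 with rescaling, 1.40 with the slope and 0.0065 with a covariate for expression from chromosome W, and -0.45 to 0.28 without single birds (-0.08 with all). FCER1G in injection averaged had 0.15 with rescaling, and ITGB2 in LASI vs LASN 0.037 with the slope. The causes were not tested. Of 29 single-gene values, 12 kept their sign and side of the threshold under all other settings. Only LYG2 in HAS vs LAS averaged was a called value among those 12, and the rest were values that never passed. The 29 include genes added because they were called only with the slope as a covariate. Those could not keep their side, so the share kept is no measure of stability. No depth is known, and genes near 0 TPM, such as the cathelicidins, cannot be compared here.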
